A study of Mus musculus with 2 samples.

Results

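The immediate early response genes described here are *Fos*, *Fosb*, *Jun*, *Junb*, *Egr1*, *Egr2*, *Egr3*, *Atf3*, *Ier2* and *Dusp1*, chosen by name as 10 of the 21244 genes with a probe on the array. Each had 1 probe, so the 10 genes were read by 10 of the 55679 probes other than controls, in 19 spots. Gene expression was measured in incisor from wild-type mice and from *Sox21* KO mice, with 1 array for each genotype, and *Sox21* is a repressor-type transcription factor of the tooth epithelium. The sample labels give both incisors as postnatal day 0, the methods of the study give day 1, and the design text also speaks of ameloblasts and whole tooth germs. The methods give C57BL/6J for the wild-type mice, and whether RNA of several mice was pooled, or which background the KO mice had, is not given in the sources used here.

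Immediate early genes are transcribed within minutes of a stimulus, from factors already in the cell, and their messages decay quickly. Growth factor, calcium, cAMP and stress signals reach their promoters through kinases of the MAPK and PKA families, serum response factor with its partners, and CREB. Many of the products are transcription factors, so a brief signal is turned into a second wave of gene expression. Fos proteins pair with Jun proteins to form AP-1, whose best known roles in mineralized tissue include osteoclast and osteoblast differentiation, and EGR proteins are zinc finger factors induced by many of the same signals.

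With 1 array per genotype, no test was possible, and the values describe these 2 RNA samples without replicates. The normalized signal is the processed signal intensity of a probe divided by the 75th percentile of all spots on its array, 268 for wild-type and 276 for *Sox21* KO. The log2 ratio is *Sox21* KO minus wild-type. The ± after a log2 ratio is the error that the scanner software gives to both spots, carried to the log2 scale, and it covers the spots and not the animals. In bulk tissue, fewer cells that express a gene and less RNA per cell cannot be told apart. The targeted gene, *Sox21*, had log2 ratios of -1.09 and -1.51 at its 2 probes, both well above background, and whether these probes lie in the deleted part was not known here. Signal was well above background, by the mark of the scanner software, for 8 of the 10 immediate early genes on both arrays and for 13796 genes in all.

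*Atf3*, *Egr1*, *Dusp1* and *Fos* had the larger signals in the *Sox21* KO incisor, by 2.21-fold, 1.59-fold, 1.502-fold and 1.487-fold, whereas *Fosb*, *Ier2*, *Egr2* and *Jun* were between 0.960-fold and 1.14-fold of the wild-type incisor. The same 4 genes were higher by more than 2 scanner errors, which held for 5.55% of the 13796 measured genes. At least 1.5-fold higher were 3 of the 8 measured members, *Atf3*, *Egr1* and *Dusp1*, against 3.20% of all measured genes, and 0 were at least 1.5-fold lower, against 2.99%. This limit fell between neighbours, since *Dusp1* was just inside it at 1.502-fold and *Fos* just outside at 1.487-fold. *Atf3* alone was at least 2-fold higher, against 0.739% of all measured genes. In direction alone, 6 of the 8 were higher and 2 lower, and 52.4% of all measured genes were higher, but the signs of *Jun*, *Egr2* and *Ier2* turned with the normalization or background correction. Over the 8 genes the median log2 ratio was 0.38, against 0.01 for all measured genes.

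**Figure D1:**
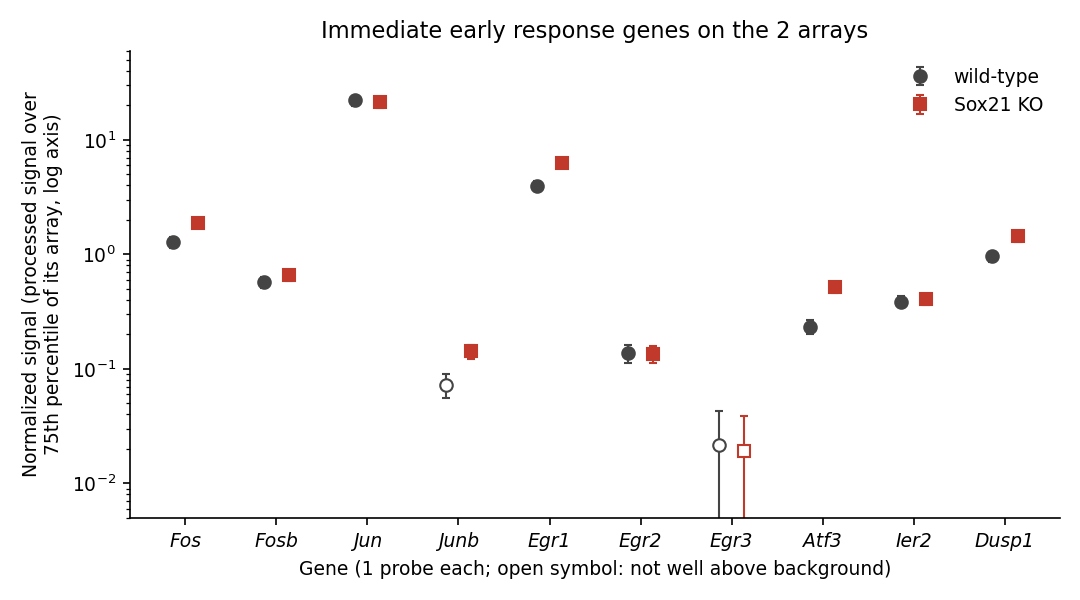
Normalized signal on a log axis, for the 10 immediate early response genes in wild-type (dark circles) and *Sox21* KO (red squares), with bars for the error given by the scanner software and open symbols for probes not well above background. *Fos*, *Egr1*, *Atf3* and *Dusp1* lie higher on the KO array, *Jun*, *Egr2* and *Ier2* lie close together, and both *Egr3* symbols are open; heights can be compared within a gene only, since each gene has its own probe.

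*Fos* encodes the founding Fos protein, which binds DNA only together with a Jun partner. Its probe, on the plus strand of chromosome 12 from 86817900 to 86817959 (mm9), was printed in 10 spots, of which 1 was an outlier on the wild-type array by the scanner software and was left out. Over the other 9 spots, the processed signal in wild-type had a lowest value of 317, a median of 337 and a highest of 366. On the KO array the same 9 spots ran from 488 through a median of 520 to 570. The ranges of the 2 arrays did not overlap, and every one of the 9 spots was brighter on the KO array. As normalized signal, *Fos* was 1.28 ± 0.08 in wild-type and 1.90 ± 0.11 in *Sox21* KO (SD over 9 spots of 1 array). The log2 ratio was 0.57 ± 0.12 (SD over 9 spots), with single spots from 0.37 to 0.75. For scale, 298 probes printed repeatedly had a median SD of 0.09 between the log2 ratios of their spots, and the difference between the arrays was larger than either SD. How many of these 298 probes had spots that did not overlap between the arrays was not counted, so the separation is not particular to *Fos*. The outlier spot had 389 in wild-type and 531 in *Sox21* KO, and with it the log2 ratio was 0.56. These spots repeat the hybridization of 1 RNA sample per genotype and not the animal.

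**Figure D2:**
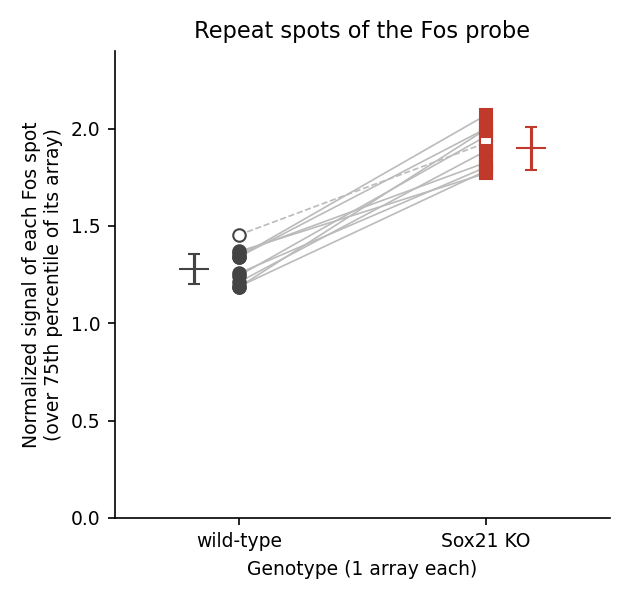
Normalized signal of each spot of the *Fos* probe on the wild-type array (circles) and the *Sox21* KO array (squares), with lines joining the same spot position, open symbols for the outlier spot, and bars for the mean ± SD of the 9 spots used. The 9 wild-type spots lie between 1.19 and 1.37 and the 9 KO spots between 1.77 and 2.07, with no overlap.

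*Fosb*, the closest relative of *Fos* in this group, has products that also pair with Jun proteins. Its probe, on chromosome 7 from 19888168 to 19888227 (mm9, minus strand), read 154 in wild-type and 181 in *Sox21* KO as processed signal. The log2 ratio of 0.19 ± 0.22 was smaller than its own scanner error, and 20.7% of the other measured genes were at least as high.

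*Jun* encodes the partner that also binds DNA as a pair with itself. Processed signals of 5930 in wild-type and 5857 in *Sox21* KO made it nearly equal on the arrays, with a log2 ratio of -0.06 ± 0.20, which became 0.04 when each array was scaled to its median. The *Jun* probe lies on chromosome 4 from 94716928 to 94716987 (mm9, minus strand). *Junb*, a Jun protein often weaker as an activator than *Jun*, was dim. Its probe, on chromosome 8 from 87501881 to 87501940 (mm9, minus strand), read 19.5 with an error of 4.73 in wild-type, where it did not pass the background mark, and 39.3 with an error of 5.55 in *Sox21* KO, where it did. Set against 21.3, the lowest wild-type signal that passed the mark, the *Sox21* KO signal of *Junb* was 1.79-fold of it after normalization. This is not a firm bound, since it leaves out the spot errors. A wild-type signal above 21.3 could also fail the mark, as that of *Flg* did at 23.7. *Junb* is not among the 8 measured genes. Among the AP-1 partners, with the scanner error for both, *Fos* had a log2 ratio of 0.57 ± 0.21 and *Jun* one of -0.06 ± 0.20. The contrast between these genes was not tested.

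*Atf3* is a bZIP factor of the ATF family, induced by many kinds of cell stress and known mostly as a repressor. The probe, on chromosome 1 from 192994547 to 192994606 (mm9, minus strand), read 62.5 with an error of 8.37 in wild-type and 142 with an error of 15.1 in *Sox21* KO. Its log2 ratio of 1.15 ± 0.25 was the highest of the 8 measured members, and 0.536% of the other measured genes were at least as high. Among the 3008 genes with a mean signal within 2-fold of that of *Atf3*, this share was 1.10%. The signal was low. Under the normal-exponential background correction, run with an offset of 50 added to the signals, the log2 ratio of *Atf3* was 0.72, with 0 members at least 2-fold higher. Correction and offset, which pull dim probes together, were not tried apart.

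*Egr1* encodes the most widely induced EGR factor. It went from a processed signal of 1065 in wild-type to 1743 in *Sox21* KO. The probe lies on chromosome 18 from 35024395 to 35024454 (mm9, plus strand). The log2 ratio was 0.67 ± 0.20, and under all settings tried it stayed between 0.60 and 0.77. Of the 3648 other genes with a mean signal within 2-fold of it, 0.795% were at least as high. *Egr2*, known for its part in Schwann cell myelination, gave 36.8 and 37.3 at a probe on chromosome 10 from 67004798 to 67004857 (mm9, plus strand), with errors of 6.43 and 6.18. With a log2 ratio of -0.02 ± 0.35, *Egr2* was near equal on the arrays, though its error was wider than those of the brighter probes. *Egr3*, known for its part in muscle spindle development, passed the background mark nowhere, with signals of 5.78 and 5.31 that were no larger than their errors of 5.79 and 5.33. No ratio is given for *Egr3*. The EGR genes were therefore measured at very different precision, and *Egr1* alone of them differed by more than 2 scanner errors.

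*Ier2* encodes a small nuclear protein of the early response that lacks a known DNA-binding domain of its own. It read 104 in wild-type and 113 in *Sox21* KO at a probe on chromosome 8 from 87186214 to 87186273 (mm9, minus strand). The log2 ratio was 0.08 ± 0.23, inside the scanner error, and became -0.02 under the normal-exponential correction. *Dusp1* encodes a phosphatase that switches off MAP kinases and so acts as feedback on the signals that induce it. It had signals of 256 with an error of 26.2 in wild-type and 396 with an error of 39.9 in *Sox21* KO. For *Dusp1* the log2 ratio was 0.59 ± 0.21, and 3.11% of the 3797 other genes of like signal were at least as high. The file places the *Dusp1* probe on chromosome 17 from 26642526 to 26642536 (mm9, minus strand), which is 11 bases for a probe of 60, so its listed position is incomplete. Ordered by log2 ratio, *Atf3* stood first, *Egr1*, *Dusp1* and *Fos* lay inside each other's errors, and *Fosb*, *Ier2*, *Egr2* and *Jun* were each less than their own error from 0.

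**Figure D3:**
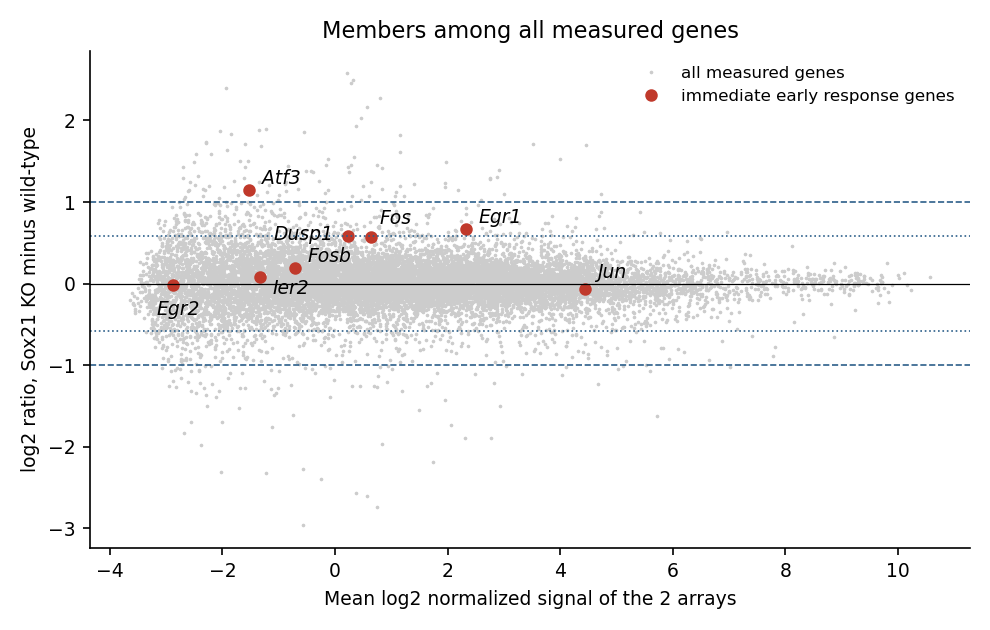
The log2 ratio (*Sox21* KO minus wild-type) against the mean log2 normalized signal of both arrays, for all 13796 measured genes (grey) and the 8 measured immediate early response genes (red), with dashed lines at 2-fold and dotted lines at 1.5-fold. *Atf3* lies above the 2-fold line at low signal, *Egr1* and *Dusp1* on or above the 1.5-fold line with *Fos* just under it, and *Fosb*, *Ier2*, *Egr2* and *Jun* near 0 in the body of the plot.

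The probes of *Junb*, *Egr3* and *Ier2* are shown because *Junb* and *Egr3* are the 2 members without a ratio, and *Ier2* had the same GC content as both. In the sense direction each of them has at least 1 reading frame without a stop codon. The same holds for the probes of *Atf3*, *Dusp1*, *Egr1* and *Fosb*, but not for those of *Fos*, *Jun* and *Egr2*. The sequences are those of the scanner files, 5′ to 3′.
Junb: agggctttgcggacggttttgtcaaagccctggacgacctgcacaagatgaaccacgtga
Egr3: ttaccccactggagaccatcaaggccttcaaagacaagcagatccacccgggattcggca
Ier2: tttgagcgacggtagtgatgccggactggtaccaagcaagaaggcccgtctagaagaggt
The GC content was 55.0% in all 3, whereas that of the other 7 probes ranged from 35.0% to 51.7%. Whether the 10 probes lie in coding exons or untranslated regions could not be assigned, since the gene table used here is of another build than the mm9 positions in the files.

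Promoters were compared because cAMP and calcium signals reach several of these genes through CREB, which binds the cAMP response element TGACGTCA or its core TGACG. RefSeq promoter sequences of GRCm38.p6 were at hand for 7 of the 10 members, *Fos*, *Fosb*, *Jun*, *Junb*, *Egr2*, *Atf3* and *Dusp1*. In the 250 bases before the start, TGACG on either strand was present in a promoter of 6 of these 7 genes, all but *Jun*, and in 17.8% of all 32851 promoters in the table. *Egr2* has 5 listed promoters, of which 3 hold the core, and so had more chances than the other genes. The full element, which contains the core, was present in *Dusp1* alone of the 7, against 1.55% of all promoters. The core was added to the search after these sequences had been seen. Of the members measured on both arrays, the 3 with a promoter and a signal higher by more than 2 scanner errors are shown with *Jun*, whose signal was nearly equal, each 5′ to 3′ and ending at the base before the start, with capitals for TGACG on either strand.
Fos (chr12:85473640-85473889, plus strand): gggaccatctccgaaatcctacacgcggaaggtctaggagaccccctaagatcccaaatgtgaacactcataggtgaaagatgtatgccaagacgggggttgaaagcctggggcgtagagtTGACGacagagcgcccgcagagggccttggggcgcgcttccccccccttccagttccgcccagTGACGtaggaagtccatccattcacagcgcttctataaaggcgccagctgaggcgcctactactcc
Dusp1 (chr17:26508473-26508722, minus strand): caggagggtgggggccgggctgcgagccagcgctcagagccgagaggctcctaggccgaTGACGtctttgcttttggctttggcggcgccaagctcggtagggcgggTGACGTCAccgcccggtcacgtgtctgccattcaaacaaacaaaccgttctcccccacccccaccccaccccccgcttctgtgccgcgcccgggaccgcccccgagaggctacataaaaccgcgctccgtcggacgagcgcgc
Atf3 (chr1:191183334-191183583, minus strand): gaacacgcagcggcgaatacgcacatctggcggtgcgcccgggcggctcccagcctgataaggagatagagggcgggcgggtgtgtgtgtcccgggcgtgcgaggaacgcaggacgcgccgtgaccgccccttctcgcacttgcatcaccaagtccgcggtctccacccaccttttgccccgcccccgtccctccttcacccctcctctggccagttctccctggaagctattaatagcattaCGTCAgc
Jun (chr4:95052223-95052472, minus strand): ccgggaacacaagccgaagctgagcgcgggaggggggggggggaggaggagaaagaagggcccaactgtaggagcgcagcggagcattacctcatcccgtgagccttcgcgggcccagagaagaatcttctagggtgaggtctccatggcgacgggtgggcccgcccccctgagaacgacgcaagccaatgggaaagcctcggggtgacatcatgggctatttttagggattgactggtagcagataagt
In *Fos* the cores begin 129 and 66 bases before the start. *Dusp1* holds the full element from 143 to 136 bases before the start and a further core from 191, and in *Atf3* the core, on the minus strand, lies within 7 bases of the start. *Fosb* and *Egr2*, whose log2 ratios were inside their scanner errors, also hold a core, and so does *Junb*, which was not measured on both arrays. The CArG box, the element of serum response factor, was present in *Egr2* alone of the 7 within this window, against 1.47% of all promoters. Of the other letters searched on both strands, TATAAA was present in *Fos* alone (12.4% of all promoters), and the AP-1 site TGANTCA (6.75%) and the EGR site GCGTGGGCG (0.536%) were in 0 of the 7. Such matches are letters in a window and not evidence of binding.

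Other immediate early genes had log2 ratios on both sides of 0. The list holds 53 further genes, among them the remaining AP-1 genes, the *Nr4a*, *Klf* and *Dusp* families and the *Gadd45* genes, and 45 of these were measured on both arrays, 1 passed the background mark in *Sox21* KO alone, and 7 passed it nowhere. Their median log2 ratio was 0.11, against 0.01 over all measured genes. Of the 45, 29 were higher and 16 lower, and 52.4% of all measured genes were higher. At least 1.5-fold higher were 3 of the 45, against 3.20% of all measured genes, and 2 were at least 1.5-fold lower, against 2.99%. By more than 2 scanner errors, 11 were higher and 4 lower, against 5.55% and 5.29% of all measured genes. The highest were *Sgk1*, a kinase induced by serum and glucocorticoids, which went from 2732 to 4699 with a log2 ratio of 0.74 ± 0.20, and *Per1*, a clock gene with an immediate early response, which went from 4028 to 6728 with 0.70 ± 0.20. *Ccn2*, a matricellular protein gene induced by TGF-beta, had 0.62 ± 0.20. Lowest was *Trib1*, a pseudokinase gene, with signals of 1291 and 556 and log2 ratios of -1.26 and -1.20 at its 2 probes. *Npas4*, an activity-dependent factor of neurons, was dim, at 57.6 and 29.9, with -0.99 ± 0.35.

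Among the remaining AP-1 genes, *Fosl2* had a log2 ratio of 0.41 ± 0.20, with signals of 3048 and 4165, and *Jund*, the least inducible Jun gene, had 0.02 ± 0.20. *Fosl1* did not pass the background mark in wild-type, at 13.2, and had 33.1 in *Sox21* KO. After normalization this was 1.51-fold of the lowest wild-type signal that passed the mark, which is not a firm bound. *Egr4* passed the background mark nowhere. The phosphatase genes related to *Dusp1* had 0.41 for *Dusp6*, 0.12 for *Dusp4* and -0.03 for *Dusp2*. These genes were named for their relation to the members, after values had been seen.

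Regulators of this response had a median log2 ratio close to that of all measured genes. Of 30 regulators, which cover serum response factor and its partners, CREB and its relatives, MAP kinases and their kinases, and the repressors of EGR and AP-1 activity, all 30 were measured. Their median log2 ratio was 0.02, with 16 higher and 14 lower, against 52.4% higher of all measured genes. At least 1.5-fold apart were 0 in either direction, against 3.20% higher and 2.99% lower of all measured genes. By more than 2 scanner errors, 1 was higher and 0 lower, against 5.55% and 5.29%, and this was *Jdp2*, a repressor of AP-1, at 0.43 ± 0.20, named after its value was seen. At the brightest probe of each gene, the range was from -0.19 for *Batf3* to 0.44 for *Rps6ka5*, a kinase that acts on CREB. Some other probes lay outside it, such as 1 of *Rps6ka3* at 0.53. *Srf* had 0.07 ± 0.20, with -0.03 at its other probe, and *Creb1* had -0.11 ± 0.22, with 0.08 at its other probe. These are levels of messages, while the activity of these proteins depends on phosphorylation, which the arrays do not read.

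Of the 16 heat shock genes, the 15 with a probe were all measured, with a median of 0.09. Of these, 10 were higher and 5 lower, against 52.4% higher of all measured genes. *Hspa1a*, the most inducible Hsp70 gene, went from 123 to 247, a log2 ratio of 0.97 ± 0.21, and was the only one of the 15 at least 1.5-fold higher. Its near-identical copy *Hspa1b* has no matched probe here, so this probe may read both. The lowest was *Hspb8* at -0.41 ± 0.20. Genes known as targets of AP-1 or EGR factors had a median of 0.26 over 13 measured of 16. Of these, 9 were higher and 4 lower, against the same 52.4%. Among those at least 1.5-fold higher were *Mmp13* at 0.88 ± 0.20 and *Mmp9* at 0.83 ± 0.20, against a background of 3.20% of all measured genes, and the lowest was *Hmox1* at -0.23 ± 0.20, whose other probe had 0.07. *Mmp9*, a gelatinase, and *Mmp13*, a collagenase, are also made in resorbing and forming bone, and *Mmp9* is on the osteoclast list below as well.

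**Figure D4:**
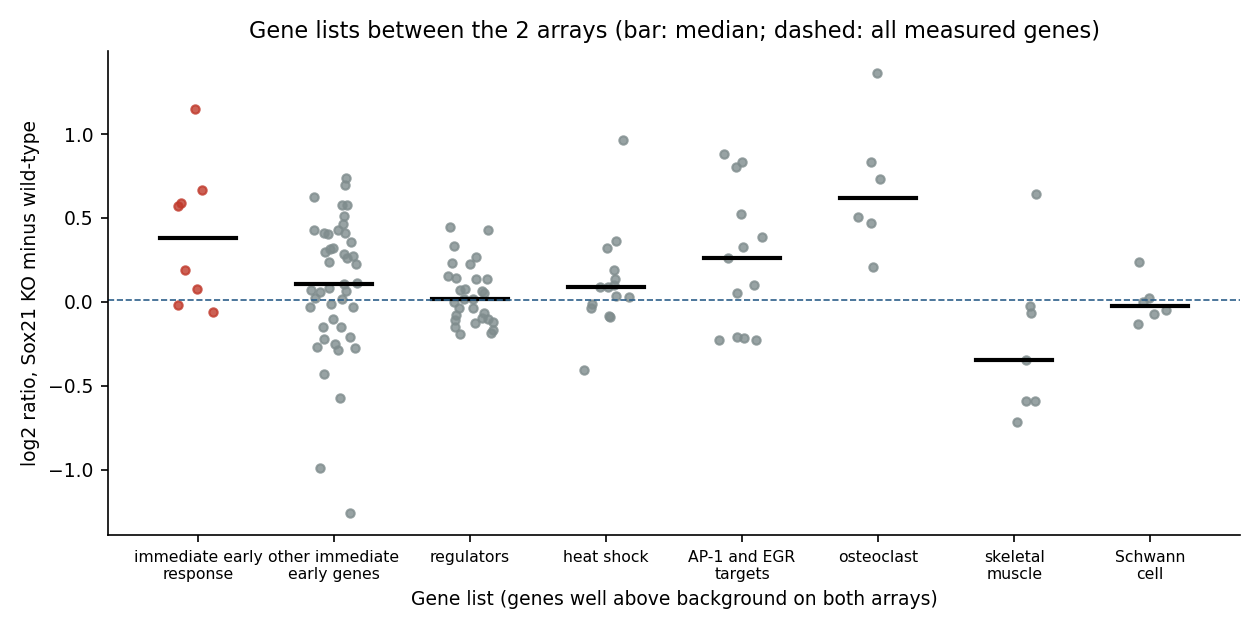
The log2 ratio (*Sox21* KO minus wild-type) of each measured gene in the immediate early response genes (red), in the 4 related lists and in 3 marker lists chosen for display after their values were seen, with a black bar for each median and a dashed line for the median of all measured genes. The medians are 0.38 for the members, 0.11 for other immediate early genes, 0.02 for regulators, 0.09 for heat shock genes, 0.26 for AP-1 and EGR targets, 0.62 for osteoclast, -0.35 for skeletal muscle and -0.03 for Schwann cell markers.

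Some markers of cell types that such a sample could hold also differed between the arrays by more than 2 scanner errors, which held for 5.55% of all measured genes in the higher and 5.29% in the lower direction. In direction alone, 52.4% of all measured genes were higher. For the labelled tissue itself, all 7 ameloblast and all 4 odontoblast genes were well above background on both arrays. Of 6 osteoclast markers, all 6 were higher in *Sox21* KO, 5 by more than 2 scanner errors, with a median log2 ratio of 0.62 and a summed normalized signal of 750 in wild-type and 931 in *Sox21* KO. None of the 6 was at background, and *Calcr*, the calcitonin receptor, had the highest at 1.36. Of 7 measured skeletal muscle markers, 6 were lower, 3 of them by more than 2 scanner errors, and *Myh3*, an embryonic myosin gene named after its value was seen, was higher, at 0.64 ± 0.20. Their median was -0.35, with a summed signal of 65.7 and 47.9, and *Myod1* was at background on both arrays. Schwann cell markers, relevant to *Egr2*, had a median of -0.03 over 6 measured of 7, with summed signals of 17.9 and 17.8. Ameloblast genes had a median of -0.62, with 5 of 7 lower, 4 lower and 1 higher by more than 2 scanner errors, and summed signals of 3162 and 2866. The cornified skin list had a median of 1.15 over 5 measured of 7, with 8.39 and 17.0. Endothelial markers had a median of 0.11, with 5 of 6 higher and summed signals of 55.1 and 55.5, and macrophage markers 0.21, with 4 of 6 higher and 36.5 and 45.0. Medians of the other lists were 0.42 for odontoblasts, 0.20 for epithelium, 0.18 for mesenchyme, 0.12 for bone, -0.05 for neutrophils, -0.05 for lymphocytes and -0.18 for erythroid cells. By more than 2 scanner errors, 2 of 4 odontoblast, 2 of 6 bone, 2 of 6 endothelial and 3 of 5 cornified skin genes were higher and 0 lower, 1 macrophage gene was higher and 1 lower, and 0 differed in the epithelium, mesenchyme, Schwann cell, neutrophil, lymphocyte and erythroid lists. The part of these differences in the values of the immediate early genes was not tested.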

How the data were processed

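RNA of 1 wild-type and 1 *Sox21* KO incisor sample was labelled with Cy3 and hybridized to Agilent SurePrint G3 Mouse GE arrays. The authors deposited, per spot, a processed signal intensity and its error, background-subtracted within the array by Feature Extraction 10.7.3.1, and raw spot and background intensities. A deposited table holds the same signals as a ratio to 1 number per array. Here, each signal was divided by the 75th percentile of its array, spots of a probe were averaged on the log2 scale, and 267 outlier spots were left out. Gene symbols came from RefSeq (GRCm38.p6), by accession for 26298 probes, by symbol for 2044 and by older symbol for 355. A gene was measured if a probe passed the scanner's well-above-background mark on each array, and its brightest such probe was used. Single values of some list genes are not reported here. Members, lists and the rule for naming genes (all members, and in each related list the genes at least 1.5-fold apart, the highest and the lowest) were chosen with earlier results of these data known. The number of arrays limits the precision, and no test was run. Alternatives covered scaling, background correction, filter, probe choice and the deposited table, and 1, keeping the *Fos* outlier spot, was added after seeing the data. The software was limma 3.58.1 under R 4.3.3, and Python 3.11.15 with pandas 2.3.3 and numpy 2.4.6.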

Additional observations from a re-analysis of the deposited data

How the results depend on the processing

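*Fos*, *Egr1*, *Atf3* and *Dusp1* were higher in *Sox21* KO under every alternative that measured them, with log2 ratios from 0.50 to 0.67, 0.60 to 0.77, 0.72 to 1.24 and 0.44 to 0.68, and the filter at a signal of 100 left *Atf3* out. *Jun*, *Egr2* and *Ier2* did not keep their sign. At least 1.5-fold higher were between 2 and 4 members. Scaling to the median of each array shifted all measured genes to a median of 0.11 and the members to 0.48, other immediate early genes to 0.20, regulators to 0.11, heat shock genes to 0.18 and AP-1 and EGR targets to 0.36. It gave 6 other immediate early genes at least 1.5-fold higher, and over all measured genes 671 at least 1.5-fold higher and 278 lower, against 441 and 412, and 135 and 63 at 2-fold, against 102 and 92. The normal-exponential correction together with its offset of 50 gave a member median of 0.29 and 0 members at least 2-fold higher. Over all measured genes, it gave 46 and 40 at least 2-fold and 172 and 212 at least 1.5-fold higher and lower. Without the filter on background, these were 508, 695, 1298 and 1460, with 6 other immediate early genes at least 1.5-fold higher. A minimum signal of 100 gave 50, 45, 214 and 229, and 0 members at least 2-fold higher, because *Atf3* was dropped. No paired analysis was possible because each genotype has 1 sample, and leaving out a sample was not possible either.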
